A study of Mus with 12 samples.

Results

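In the livers of 6 mice, 162 genes carried 5 or more m6A regions that were found in every animal, and their 994 regions are described here. N6-methyladenosine (m6A) is a methyl mark on adenosines of mRNA, and MeRIP-seq maps it by pulling down fragmented mRNA with an antibody against m6A and sequencing it beside the input. A peak is a stretch that was enriched in the immunoprecipitate over the input of the same mouse. Peaks from different livers that shared 1 base or more were joined, with chaining, which gave 18374 merged regions. Of these, 6245 had a peak in all 6 lists and are called constant. The 994 regions are those constant regions whose gene name occurred 5 times or more among them. They make up 15.9% of the constant regions and 5.41% of all merged regions, and their genes are 4.44% of the 3648 genes with a constant region. Presence of a peak in every list chose these regions, so their presence and their number per gene are a description and not a result.

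The mice were male C57BL/6J, 6 weeks old at the start, and were kept for 12 weeks on a high-fat diet with 60% of the energy from fat (HFD 1 to HFD 3) or on a low-fat diet with 10% of the energy from fat (WT 1 to WT 3). No allele differed between the groups, and the name WT marks the diet only. Each group held 3 livers, and the titles pair each immunoprecipitate with an input, which gives 12 samples. Since the diet tag reads HFD even for the control mice, group membership rests on the sample titles. In whole liver, fewer cells of a type and less RNA per cell cannot be told apart.

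The m6A mark is placed on new transcripts by a writer complex built around METTL3 and METTL14, is removed by the erasers FTO and ALKBH5, and is bound by reader proteins of the YTH family. In mammalian mRNA it is best known from long internal exons and from the surroundings of the stop codon, and it is known to act on splicing, export, decay and translation. Neither strand nor sequence comes with the peaks, and no genome was used here, so a region could not be assigned to an exon, a coding stretch or an untranslated stretch.

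The 6 lists held between 10109 and 12966 peaks, with a median fold enrichment between 7.32 and 7.92. The fold enrichment is the ratio of immunoprecipitate to input given by the authors' peak caller, and it is not scaled between libraries. The sources used here do not give sequencing depth. Of 37 skeletal muscle markers, 2 had a peak in each of HFD 1, HFD 2, HFD 3 and WT 1, against 23 in WT 2 and 30 in WT 3, and none of these markers is among the 162 genes. Without WT 2 and WT 3, a choice made after seeing the data, the rule gave 193 genes and 1205 regions. Of 22 hepatocyte markers, between 5 and 7 had a peak in a library, while Alb, Cps1 and Cyp2e1 had none in any library, so peaks do not stand in for expression of these markers. Kupffer cell and macrophage markers had a peak for between 6 and 9 of 16 genes, adipocyte markers for between 1 and 3 of 11, and endothelial and stellate markers for between 11 and 13 of 17. No gene of these marker lists was among the 162.

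The regions were short, and most of them had exactly the same start and end in all 6 livers. Their median length was 165 bases (quartiles 113 and 280.5), against 429 bases (quartiles 160 and 1197.5) for the other 5251 constant regions. Of the 994 regions, 857 (86.2%) had 1 peak with an identical start and an identical end in every list, against 3105 of the 5251 others (59.1%). A length of 1000 bases or more was reached by 88 regions (8.85%), against 30.4% of the others, and 756 regions (76.1%) were shorter than 300 bases. The lengths ran from 20 to 8729 bases. Genes are not independent samples and the members were chosen by their number, so these shares are given without a test.

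**Figure D1:**
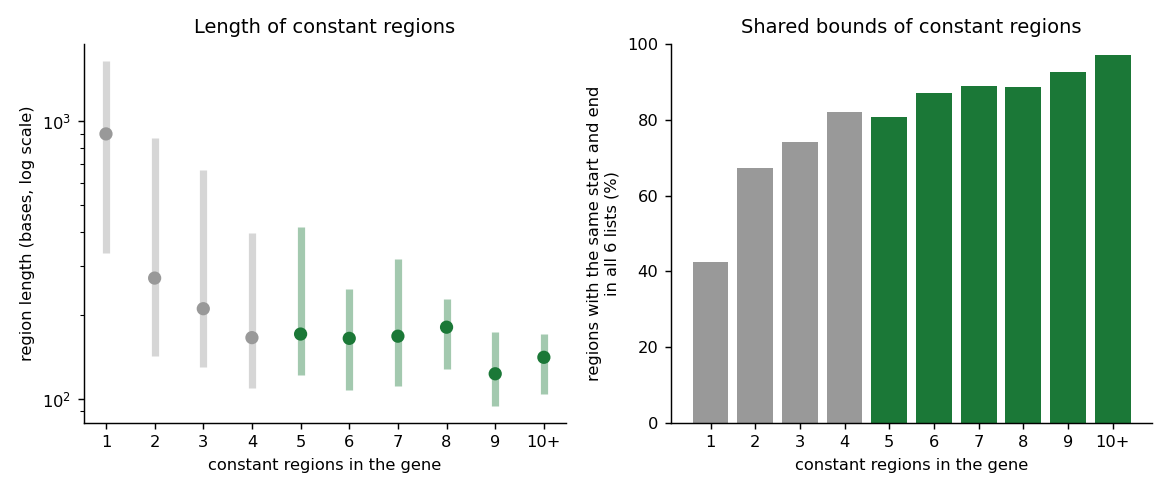
Length of constant regions (left, bases on a log scale, points are medians and bars run between the quartiles) and share of constant regions with the same start and end in all 6 lists (right, %), by the number of constant regions in the gene; green marks genes with 5 or more. The median length was 899 bases in genes with 1 constant region and 141 bases in genes with 10 or more, and the share with the same bounds was 42.5% and 97.2%.

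Regions on either side of the rule's edge had similar shapes. In the 66 genes with exactly 5 constant regions, the median length was 171 bases, the median fold enrichment was 10.5 and 80.6% of regions had the same bounds in all lists. In the 148 genes with exactly 4, just outside the rule, the values were 166 bases, 10.8 and 81.9%. Thrap3, Ddx46 and Rtf1 had the highest median fold enrichment of the genes with exactly 5, at 27.7, 26.2 and 23.5. They encode factors of splicing and of transcription elongation. Uggt1, which encodes a sensor of glycoprotein folding, Secisbp2l and Dmgdh, which encodes a mitochondrial enzyme of choline breakdown, had the lowest at 6.51, 4.67 and 4.41. Just outside, Sec62, Cfdp1 and the nuclear m6A reader gene Ythdc1 had the highest medians at 52.7, 47.8 and 44.8, and Lrp5 and Eif4b were among the lowest at 5.82 and 4.58.

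Neighbouring regions of a gene lay apart on the chromosome. The 832 gaps between neighbours had a median of 4021 bases (quartiles 1892 and 10749), and 776 of them (93.3%) were 1000 bases or longer. The shortest gap was 562 bases. These distances are along the genome and include any introns between regions, so distances along the mRNA were not measured. The regions lay on 20 chromosomes, with 96 on chromosome 5, 91 on chromosome 1 and 5 on chromosome X. Of the 162 genes, 158 were matched to RefSeq genes on GRCm38 (mouse), with a median genomic span of 76817 bases, against 31584.5 bases for 3410 other genes with a constant region. Among the 158, the span and the number of regions had a Spearman correlation of 0.06 across genes, which are not independent. All positions below are 1-based, as the lists give them, and refer to GRCm38.

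Iqgap2, which encodes a scaffold protein that binds actin and small GTPases and is expressed in liver, had the most constant regions, 15 of its 21 merged regions. They lay on chromosome 13 between 95629989 and 95891922, had lengths from 68 to 259 bases, and all 15 had the same bounds in every list. Its highest region (chr13:95635464-95635676) had a fold enrichment of 19.4, 16.2 and 15.9 in HFD 1, HFD 2 and HFD 3 and of 15.9, 19.0 and 20.6 in WT 1, WT 2 and WT 3. Its lowest region (chr13:95732891-95733004) had 4.06, 3.60 and 3.84 in the HFD livers and 3.10, 3.63 and 5.24 in the WT livers. The groups overlapped in both regions, and the highest value of the lower region was below every value of the higher.

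Cgnl1 and Erc1 followed with 13 constant regions each, all with the same bounds in every list. Cgnl1 encodes paracingulin, a protein of epithelial cell junctions, and its region chr9:71651234-71651386 reached 39.3, 57.9 and 50.5 in the HFD livers and 34.7, 42.5 and 59.2 in the WT livers. The lowest region of Cgnl1 (chr9:71723534-71723628) stood at 8.09 ± 1.06 (SD, n = 6 livers). Erc1 encodes a coiled-coil scaffold at the cell cortex, and its 13 regions ran from a mean of 4.14 ± 0.780 (SD, n = 6) at chr6:119694571-119694731 to 30.9 ± 9.39 (SD, n = 6) at chr6:119743288-119743481. Golim4, which encodes an integral membrane protein of the Golgi, had 11 regions, of which 9 had the same bounds in every list. Its highest region (chr3:75886673-75886840) stood at 58.2 ± 10.4 (SD, n = 6).

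**Figure D2:**
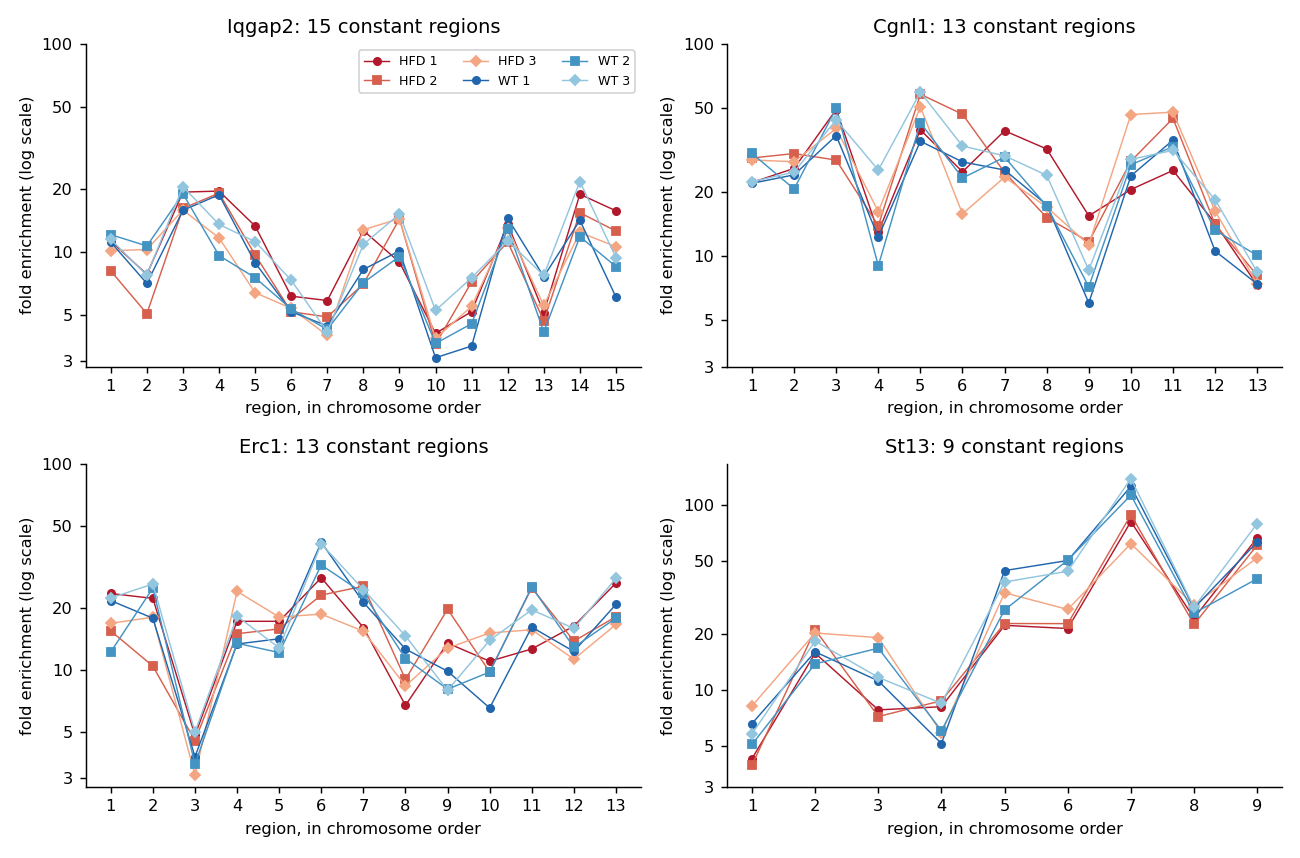
Fold enrichment (log scale) of every constant region of Iqgap2, Cgnl1, Erc1 and St13 in the 6 livers, with regions numbered in chromosome order and a line for each library. In Erc1 the HFD and WT livers move in opposite directions between the eighth and ninth regions, and in St13 the sixth and seventh regions are the only ones of that gene at which all HFD values lie below all WT values.

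Subunits of the SWI/SNF chromatin remodeler were among the genes with the most regions. Smarca2, which encodes the ATPase BRM, and Smarcc1, which encodes the core subunit BAF155, had 10 constant regions each, and Smarca4, which encodes the ATPase BRG1, had 7. The highest region of Smarcc1 (chr9:110205999-110206153) stood at 61.8 ± 14.3 and its lowest (chr9:110182922-110183043) at 6.67 ± 2.11 (SD, n = 6). In Smarca2 the highest region (chr19:26751824-26752041) had 43.7, 41.3 and 40.3 in the HFD livers and 80.3, 84.8 and 50.7 in the WT livers, and the groups did not overlap.

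The next genes encode proteins of several functions. St13 encodes a cochaperone of HSP70, Top1 encodes DNA topoisomerase I and Usp8 encodes a deubiquitinase of endosomes, and each had 9 constant regions. Taok3, which encodes a protein kinase, R3hdm2 and Zc3h13 had 8 each. Zc3h13 is itself a subunit of the m6A writer complex, and its highest region (chr14:75327544-75328144) stood at 70.8 ± 8.75 (SD, n = 6), with its lowest (chr14:75293891-75294002) at 6.90 ± 1.44. Reads of genes with near-identical copies, such as Gvin1 with its neighbours and genes with processed pseudogenes, may be split between copies by the authors' mapping, and such values are uncertain. Regions were also counted by name. The first region named Gvin1 began at 105895119 on chromosome 7, outside the RefSeq gene, which begins at 106156535. That of Gon4l began at 88776984 on chromosome 3, against a gene start of 88835207.

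The strongest of the 994 regions lay in Cald1, which encodes the actin-binding protein caldesmon. This region (chr6:34755634-34755898) had a fold enrichment of 163, 142 and 151 in the HFD livers and of 149, 192 and 124 in the WT livers. Hnrnpm, which encodes a splicing regulator, followed with a region of 2178 bases (chr17:33685267-33687444) at 207, 136 and 117 in the HFD livers and 88.8, 115 and 176 in the WT livers. The region of Top1 at chr2:160682651-160682774 stood at 104 ± 15.8 (SD, n = 6), that of Eif5b, which encodes a GTPase of translation initiation, at chr1:37998010-37998324 at 105 ± 34.9, and that of St13 at chr15:81389651-81389723 at 102 ± 29.3. The groups overlapped in Cald1, Hnrnpm, Top1 and Eif5b.

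Fold enrichment over the 994 regions was close to that of the other constant regions. The median of the region means was 10.9, against 10.01 for the others. By library, the median was 11.9, 11.6 and 10.3 in HFD 1, HFD 2 and HFD 3 and 10.9, 10.8 and 12.6 in WT 1, WT 2 and WT 3. The members lay above the others by between 0.17 and 0.21 in the median log2 fold enrichment in HFD 2, HFD 3, WT 1, WT 2 and WT 3, and by 0.0042 in HFD 1. Length and fold enrichment had a Spearman correlation of 0.01 across the 994 regions, which share libraries and genes.

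Regions of the same gene differed more than the same region differed between livers. The ratio of the highest to the lowest region within a gene, with the geometric mean of the 6 livers for each region, had a median of 3.73 over the 162 genes and ran from 1.41 to 21.9. The ratio of the highest to the lowest library at the same region, after each library was centred on its median, had a median of 1.82 (1.81 for the other constant regions). In 74 genes (45.7%) the same region was the highest in all 6 livers, in 35 genes in 5 livers, in 25 in 4, in 25 in 3 and in 3 genes in 2. Examples with the same highest region in every liver were Smarcc1, Top1, Usp8, Bptf, Eif5b, Hnrnpm and Cald1. Between any pair of libraries, the deviations of the 994 regions from their gene mean had a Spearman correlation between 0.78 and 0.86. The mean was 0.82 for pairs of the same diet and 0.82 for pairs of different diets. These correlations are across regions, which share genes and base composition, and are given as a description.

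The lists of chromatin and of cytoskeleton genes held more members than the other lists. Members made up 4.44% of all genes with a constant region. The lists were chosen with earlier results of these data known, so the shares below are a description. Matched members also had a longer median genomic span than the other matched genes (76817 against 31584.5 bases). The part of gene length in these shares was not tested. Of 58 genes of chromatin and histone methylation with a constant region, 16 (27.6%) were members, with 99 regions. Among them were Bptf, the largest subunit of the remodeler NURF, with 8 regions, and the histone methyltransferase genes Ehmt1, Ash1l, Setd2 and Nsd1. The highest region of Bptf (chr11:107131274-107132127) stood at 98.3 ± 30.9 (SD, n = 6). Of 30 genes of the cytoskeleton and of scaffolds, 9 (30.0%) were members, among them Cep350, a centrosome protein, and Macf1, a linker of microtubules and actin, with 7 regions each, and the Golgi tether Golgb1 with 6. The highest regions of these genes stood at 15.5 ± 3.13, 15.2 ± 5.88 and 34.0 ± 6.95.

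The lists of coregulators, RNA-binding proteins, zinc finger genes, ubiquitin enzymes and signaling genes held a few members each. These lists are incomplete, so the counts below are of listed genes only. Hnrnpm, Usp8 and Taok3, named above as a splicing regulator, a deubiquitinase and a kinase, are members but on none of the lists. Of 25 transcriptional coregulators with a constant region, 4 were members, among them the nuclear receptor corepressor gene Ncor1, with 8 regions, Tnrc18 and Bcorl1. Ncor1 held a region (chr11:62384718-62384845) at 92.6 ± 15.2 (SD, n = 6). The splicing coactivator gene Srrm1, the translation factor gene Eif4g3, the miRNA silencing gene Tnrc6b, Zc3h18 and Rbm33 were 5 of 37 genes of RNA binding, splicing and decay. The highest regions of Srrm1, Eif4g3 and Tnrc6b stood at 39.3 ± 10.2, 17.3 ± 3.44 and 92.8 ± 22.8. Zc3h13, Znfx1 and Zfp318 were 3 of 29 zinc finger and homeodomain genes, with 34.6 ± 8.19 for the highest region of Znfx1 and 24.0 ± 4.60 for that of Zfp318. Usp47, Cul3 and Trip12 were 3 of 28 ubiquitin ligase and deubiquitinase genes, at 23.0 ± 4.29, 11.5 ± 2.77 and 8.36 ± 1.45. Iqgap2, Sos1, which encodes an activator of RAS, and the kinase gene Map4k4 were 3 of 52 signaling genes, with 44.6 ± 8.14 for the highest region of Map4k4.

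Of a list of 48 genes of lipoproteins, lipids and nuclear receptors, 13 had a constant region and 0 of these were members. Over all genes with a constant region, 4.44% were members, so a count of 0 among 13 is near the background. The lists were chosen with earlier results of these data known, so the shares are a description. Of the 162 genes, 43 were on these lists and 119 were on none. Genes outside the lists that act mainly in hepatocytes included F5, which encodes coagulation factor V, with 5 regions and no other merged region, and Dmgdh, both named after their values were seen.

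The 162 genes held 1607 merged regions, of which 61.9% were constant, against 34.0% of all merged regions, and 186 (11.6%) were found in a single library, against 23.7%. The rule fills the count with constant regions and so raises the first share and lowers the second. Among the 613 regions of these genes that were not constant, 30.3% were found in a single library, against 35.9% of the 12129 such regions of all genes, which is given as a description. In 11 genes every merged region was constant. Macf1 had more varying than constant regions, with 14 of its 21 merged regions not found in every liver. Peaks of the 162 genes numbered 1321, 1336 and 1248 in HFD 1, HFD 2 and HFD 3 and 1207, 1233 and 1348 in WT 1, WT 2 and WT 3, which were between 10.2% and 12.1% of each list.

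**Figure D3:**
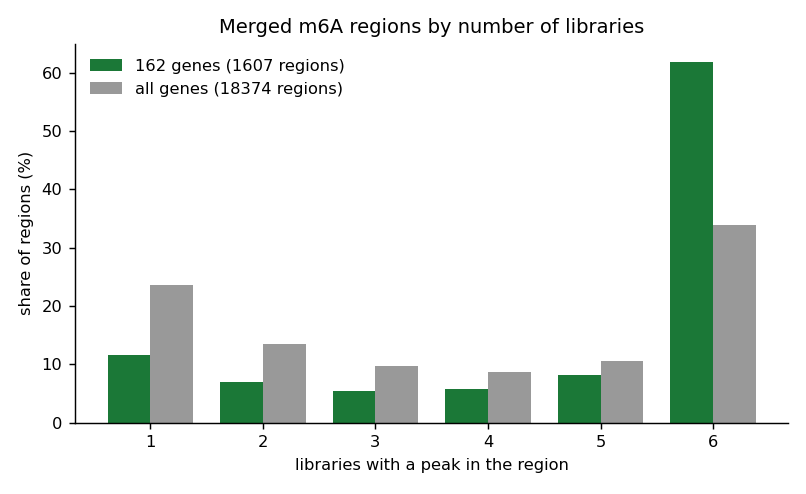
Share of merged regions (%) by the number of libraries with a peak, for the 162 genes (green, 1607 regions) and for all genes (grey, 18374 regions). Regions of the 162 genes were in all 6 libraries in 61.9% of cases and in a single library in 11.6%, and the rule itself raises the first share and lowers the second.

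Beside the constant regions, 8 regions of these genes had a peak in every liver of one diet and in none of the other. A peak in all HFD livers and in no WT liver was found in Trip12, Clint1, Rbm33, Cald1 and Chd2, 5 of 132 such regions in the series (0.311% of the merged regions of these genes, beside 0.718% of all merged regions). In Trip12, Rbm33, Cald1 and Chd2 the fold enrichment lay between 2.77 and 7.39. In Clint1, which encodes an adaptor of clathrin coats, the region (chr11:45908742-45910215) had 10.2, 9.61 and 6.32 in HFD 1, HFD 2 and HFD 3. The reverse was found for 3 of 54 such regions, among them 1 in Syne2 and 1 in Tcea3 (0.187%, beside 0.294% of all merged regions). The rule fills the merged regions of these genes with constant regions, which lowers both of their shares. Among regions that were not constant, the counts were 5 and 3 of 613, beside 132 and 54 of 12129 for all genes. The numbers are too small to read a difference from these shares. In Tcea3, which encodes a transcription elongation factor of the TFIIS family, this region (chr4:136255150-136255288) had 8.03, 9.02 and 14.1 in WT 1, WT 2 and WT 3.

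The diets were compared by the strength of enrichment at the constant regions. The rule did not use differences in strength, but it asked for a called peak in every list. Regions too weak for a peak in some liver, such as those with a peak in 1 diet only, were thus left out. The comparison therefore covers only regions called in every liver of both diets. The log2 fold enrichment was centred on the median of each library, and limma was run over all 6245 constant regions. No constant region passed at an adjusted p under 0.05 (0% of all constant regions in either direction, with the Benjamini-Hochberg adjustment), and so 0 of the 994 did. The lowest adjusted p of limma among the 994 was 0.767. At an unadjusted p under 0.05, 46 of the 994 were found (4.63%), beside 4.87% of all constant regions. In a simulation of this comparison over 6245 regions, 100 regions were changed by each of 2 sizes, with independent noise. Of those with a true log2 difference of 1, 31% were recovered, and of those with a difference of 2, 88%. The rates hold for this setting and were not obtained for fewer or smaller changes. The differences of the 994 regions ran from -1.06 to 0.90, with a median of -0.03, beside -0.02 over all constant regions. The median standard error of a difference was 0.27.

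Every HFD liver lay above every WT liver in 38 of the 994 regions (3.82%, beside 4.48% of all constant regions) and below in 63 (6.34%, beside 5.09%). Both shares are near those of all constant regions and are no result about these genes. Without centring of the libraries the counts were 52 and 48, so the split between the directions depended on this step. The differences below did not pass the test of limma and are given as the largest among regions whose groups did not overlap.

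**Figure D4:**
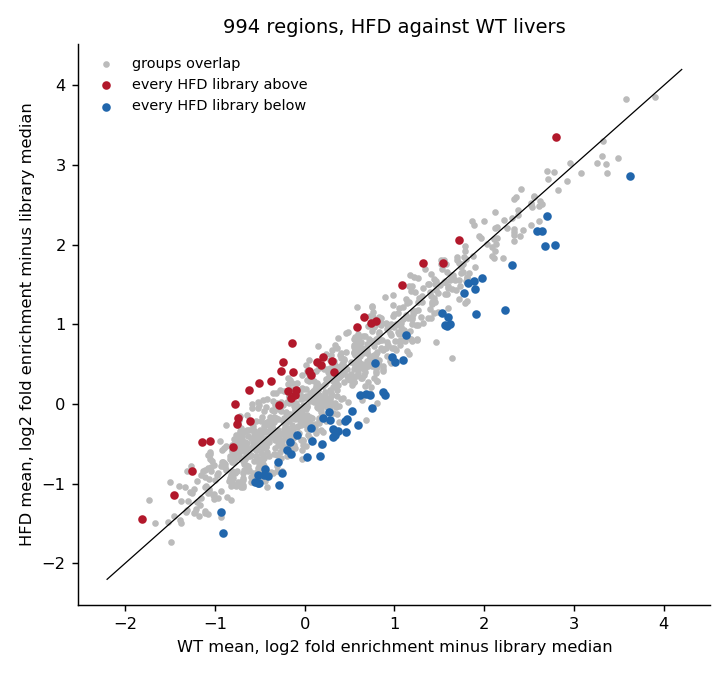
Mean log2 fold enrichment, centred on the median of each library, of the 994 regions in HFD livers (vertical) against WT livers (horizontal), n = 3 each; the line marks equal values. Regions whose groups do not overlap are red (38, HFD above) or blue (63, HFD below), and they lie along the whole range of enrichment.

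The largest difference in the direction of HFD was in Tcea3. At chr4:136254465-136254642 the fold enrichment was 15.3, 17.3 and 21.5 in the HFD livers and 8.65, 8.10 and 11.3 in the WT livers, a log2 difference of 0.90 ± 0.27 (SE, limma adjusted p = 0.860). This region lies beside the region of Tcea3 that had a peak in WT livers only, for which the HFD livers have no value. At the other 5 constant regions of Tcea3 the groups overlapped. Fam21, which encodes a subunit of the WASH complex of endosomes, had 11.5, 15.6 and 9.24 against 5.88, 8.17 and 6.03 at chr6:116217750-116217843 (0.80 ± 0.28). Cgnl1 had 15.4, 11.7 and 11.3 against 5.99, 7.14 and 8.55 at chr9:71715323-71715458 (0.78 ± 0.24), while its other 12 regions overlapped between the groups. For Ylpm1 the values at chr12:85057222-85057580 were 9.36, 14.3 and 8.75 against 7.47, 5.54 and 5.14 (0.78 ± 0.29).

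Erc1 had regions in both directions. At chr6:119753259-119753396 the HFD livers had 13.6, 19.8 and 12.8 and the WT livers between 8.0 and 9.90, a log2 difference of 0.76 ± 0.27 (SE). At chr6:119751200-119751340, the neighbouring constant region, they had 6.76, 9.04 and 8.41 against 12.7, 11.4 and 14.7 (-0.73 ± 0.26), and at chr6:119743288-119743481 they had 28.1, 23.2 and 18.7 against 41.8, 32.5 and 41.1 (-0.77 ± 0.24). Groups did not overlap in any of these regions, and they overlapped at the other 10 regions of Erc1.

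In the direction of WT, St13 had the largest difference among regions whose groups did not overlap, and a region of Tmem57 with overlapping groups had a difference of the same size. Its region at chr15:81388330-81388400 had 21.5, 22.8 and 27.3 in the HFD livers and 50.1, 50.3 and 43.8 in the WT livers, a log2 difference of -1.06 ± 0.27 (SE, limma adjusted p = 0.767). The next region of St13, the strongest of the gene, had 81.3, 88.5 and 61.8 against 126, 113 and 139 (-0.76 ± 0.24), and the groups overlapped at the other 7. Ap1ar, which encodes a regulator of adaptor complex AP-1, had 10.7, 7.38 and 8.58 against 14.8, 14.1 and 17.3 at chr3:127815596-127815694 (-0.85 ± 0.24). At chr16:44204998-44205080, Gm608 had 8.30, 5.66 and 6.41 against 13.2, 8.92 and 12.9 (-0.82 ± 0.25). Myo1e, which encodes a class I myosin, had 7.67, 8.76 and 8.34 against 10.6, 18.02 and 14.5 at chr9:70353260-70353366 (-0.81 ± 0.27). Tcf7l2, which encodes a transcription factor of Wnt signaling, had 13.1, 11.1 and 7.15 against 14.3, 13.3 and 26.8 at chr19:55912559-55912723 (-0.80 ± 0.28), and the gap between the groups was small.

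**Figure D5:**
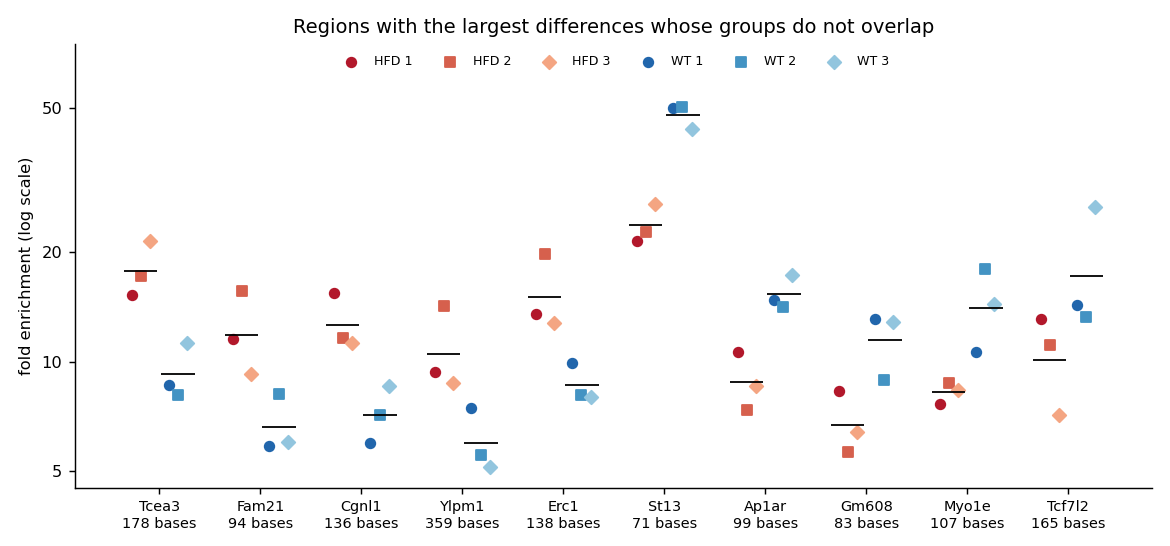
Fold enrichment (log scale) in each liver for the 5 largest differences in each direction among regions whose groups do not overlap, with black bars at the geometric mean of each group (n = 3). Tcea3, Fam21, Cgnl1, Ylpm1 and Erc1 are higher in every HFD liver, and St13, Ap1ar, Gm608, Myo1e and Tcf7l2 are lower, and none of them passed the test over all constant regions.

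Some genes had all their regions on the same side of 0 in the difference between the diets. All regions had a difference above 0 in 6 genes and below 0 in 12 genes of the 162. The centring sets the zero point, and these counts were not obtained without it or for genes outside the rule. They are therefore a description and no result about these genes. Cdk11b, which encodes a kinase of transcription and splicing, had 6 of 6 regions above 0 with a median log2 difference of 0.44, and Mia3, which encodes an export factor for collagen in the endoplasmic reticulum, had 6 of 6 with a median of 0.31, both named after their values were seen. The strongest region of Cdk11b (chr4:155639594-155639823) had 91.8, 125 and 107 in the HFD livers and 66.5, 66.5 and 79.7 in the WT livers (0.56 ± 0.25, SE, limma adjusted p = 0.999). Smarcc1 had 10 of 10 regions below 0 with a median of -0.20, and Cald1 had 6 of 6 with -0.24. A smaller input signal and a larger immunoprecipitate signal give the same fold enrichment, and regions of a gene share the abundance of its transcript, whose part in these differences was not tested.

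No member region of a functional list passed the test between the diets. The median log2 difference of their member regions lay between -0.17 for RNA binding, splicing and decay (33 regions) and 0.13 for ubiquitin ligases and deubiquitinases (16 regions), beside -0.02 over all constant regions. For chromatin and histone methylation it was -0.01 (99 regions), with every HFD liver above in 5 regions (5.05%, beside 4.48% of all constant regions) and below in 7 (7.07%, beside 5.09%). For the cytoskeleton and scaffolds it was -0.10 (53 regions), with 1 above (1.89%) and 6 below (11.3%), beside the same shares of all constant regions. These counts are small, and the split over all 994 regions depended on centring, so no lean of a list is read from them.

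The covered length of a region could differ between the diets only where its bounds moved. Limma on the log2 covered length called 0 of the 994 regions and 2 of all 6245 (0.032%) at an adjusted p under 0.05. At an unadjusted p under 0.05 there were 4 among the 994 (0.40%) and 89 among all (1.43%). With 86.2% of the 994 regions identical in start and end in every liver, most had no difference in length to test. The same held for 63.4% of all constant regions, and the median standard error over all was 1.9e-15. Limma estimates the spread in part from all regions together, so these p-values and calls are unreliable. No result is read from them.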

How the data were processed

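The authors prepared MeRIP libraries of liver mRNA and their inputs and deposited 1 peak list per mouse. Tools in the submitters' processing notes are MACS2 2.1.0, Bowtie 1.1.2, Trimmomatic 0.33 and bcl2fastq 2.17. The notes name a human build, whereas genes and positions are of mouse. The deposited fold enrichment is a ratio of immunoprecipitate to input at a peak, 2 or more throughout, not scaled between libraries. The deposited score is the negative log10 of the p-value times 10, at 50 or more throughout. The false discovery rate was deposited as a percent by the authors and was not used.

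Regions were given the most frequent gene name of their peaks. A region with several peaks in a list took the highest fold enrichment. Limma 3.58.1 in R 4.3.3 compared log2 fold enrichment, centred on the library median, and log2 covered length over all constant regions (two-sided, Benjamini-Hochberg, adjusted p under 0.05), and was tested on simulated data. Each p-value of limma sets the HFD minus WT difference against the spread between libraries of the same diet, with 3 per diet. That spread is estimated in part from all regions tested together. Named genes were the 12 with the most regions, up to 3 per functional list, the 5 strongest regions, the 5 largest non-overlapping differences in each direction and the edge of the rule, with exceptions marked. The members and lists were chosen with earlier results of these data known. The alternatives were another overlap, stricter peaks, lists of equal length, joined rows, gene IDs, 4 or 6 regions, other centring, weighted means, a replicate block and each library left out. Some items are not reported here.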

Additional observations from a re-analysis of the deposited data

How the results depend on the processing

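The number of genes and regions was 162 and 994 with an overlap of 0.5 of the shorter peak and when rows with identical values were joined, since no such rows were found. It was 137 and 835 with lists of equal length and 159 and 977 by gene ID. When peaks under the median fold enrichment of a list were dropped (stricter peaks), it was 39 and 229. With 4 or more regions asked for it was 310 and 1586, and with 6 or more 96 and 664. Leaving out a library loosens the rule, and gave between 165 and 180 genes and between 1017 and 1113 regions.

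No member region passed the test of fold enrichment by limma under any alternative. Over all constant regions 0 passed, except for 2 without HFD 3, so the range with a library left out was 0 to 2. For covered length, the alternatives gave 0 of all constant regions with the replicate block and 6 when only the 2283 regions of varying length were tested, an alternative chosen after seeing the data. With a library left out they ranged from 1 to 7, with 0 to 1 among the members (the 1 without HFD 3). The lowest adjusted p of limma was 1.9e-42 without HFD 1, against 0.012 in the main setting. Most lengths did not vary, so these counts are no result. The replicate numbers did not pair the livers (correlations of deviations -0.04, 0.02 and -0.22), and the replicate block left 0 calls for fold enrichment, as without it.

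Member regions whose HFD livers were all above or all below the WT livers numbered 25 and 31 of 521 with stricter peaks. Leaving out a library loosens this criterion, and gave 63 to 116 above and 96 to 146 below. None of the 44 differences examined passed the threshold in any of 465 values under the alternatives. These regions were chosen because their groups did not overlap, which fixes their direction when a library is left out, so their direction is no sign of stability. Without read depth, no interval for single values could be given.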
